A study of Mus musculus with 2 samples.

Results

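The microRNA family of miR-15a, miR-15b, miR-16, miR-195a and miR-497a was examined through its 6 genes Mir15a, Mir16-1, Mir15b, Mir16-2, Mir195a and Mir497, chosen by symbol from the 2202 microRNA genes of the count tables. The libraries are microRNA-seq, which sequences RNA of microRNA length, made from total RNA of left cerebral cortex, from male mice of the strain 5xFAD/CAST at an age of 8 to 10 months. They form 1 group of 2 libraries, biological replicates 1 and 2, from separate tissue samples under the same donor identifier, so whether they differ as animals do or as repeat preparations do is unknown. 5xFAD mice are a transgenic model in which amyloid builds up in the brain, and CAST refers to a wild-derived inbred strain. Whether the sampled animals carried the transgenes, and from which promoter, is not stated in the labels, and no control mice were analysed here. The results are therefore levels of the family and their spread between the libraries.

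MicroRNAs are cut from hairpin precursors, and the bases near the 5′ end of the mature strand, the seed, pair with messenger RNAs that are then repressed. The family is known as a brake on the cell cycle: its members repress cyclins and the survival factor BCL2, and the human loci of miR-15a and miR-16-1 are lost in many chronic lymphocytic leukaemias. In heart muscle miR-195 rises as cells stop dividing after birth, and in work on amyloid disease miR-16 and miR-195 have been studied as repressors of the amyloid precursor protein and of the secretase that cuts it.

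All 6 genes had mature arms in the RefSeq table (build GRCm38.p6, the same assembly as mm10), and their 5p arms carry one seed. The 5p arms are shown because this seed defines the family, with bases 2 to 8 in capitals, each written 5′ to 3′.
miR-15a-5p: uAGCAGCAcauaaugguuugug
miR-15b-5p: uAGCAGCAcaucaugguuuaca
miR-16-5p: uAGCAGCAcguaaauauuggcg
miR-195a-5p: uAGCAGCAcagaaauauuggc
miR-497a-5p: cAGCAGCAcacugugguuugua

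The 6 genes give 5 distinct 5p arms, since miR-16-5p is made from both Mir16-1 and Mir16-2. All 5 are identical from base 2 to base 9. Compared base by base from the 5′ end, miR-16-5p and miR-195a-5p differed at 2 of 21 positions and miR-15a-5p and miR-15b-5p at 4 of 22. The most different pair was miR-16-5p and miR-497a-5p, with 11 of 22 positions.

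The 3p arms, cut from the other side of each hairpin, do not share a seed. They are shown because counts are given per precursor and do not tell its arms apart, with bases 2 to 8 again in capitals.
miR-15a-3p: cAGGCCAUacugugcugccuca
miR-16-1-3p: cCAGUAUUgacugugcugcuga
miR-15b-3p: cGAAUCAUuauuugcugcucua
miR-16-2-3p: aCCAAUAUuauugugcugcuuu
miR-195a-3p: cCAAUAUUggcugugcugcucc
miR-497a-3p: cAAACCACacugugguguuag

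The genes lie in 3 tight pairs (mm10, GENCODE M21). Mir15a (chromosome 14, 61632027 to 61632110) and Mir16-1 (61631880 to 61631972) are on the minus strand, 54 bases apart, within Dleu2, a long non-coding RNA gene. Mir15a is in an intron of Dleu2, while Mir16-1 overlaps an exon of an annotated Dleu2 transcript. Mir15b (chromosome 3, 69009772 to 69009835) and Mir16-2 (69009902 to 69009996) are on the plus strand, 66 bases apart, in an intron of Smc4, which encodes a subunit of condensin, the complex that compacts chromosomes. Mir497 (chromosome 11, 70234717 to 70234800) and Mir195a (70235042 to 70235135) are on the plus strand, 241 bases apart, with no host gene annotated on that strand. The annotated gene Mir497b (70234692 to 70234816) covers Mir497 on the minus strand.

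The precursors of Mir16-1 and Mir16-2 share an unbroken run of 23 bases, which contains the whole 5p arm. The stretches are shown because they bear on what the counts of these genes can hold, with the shared run in capitals and 9 bases on each side, on chromosome 14 from 61631926 to 61631966 (minus strand) and on chromosome 3 from 69009909 to 69009949 (plus strand).
Mir16-1: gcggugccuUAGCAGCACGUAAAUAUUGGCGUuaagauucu
Mir16-2: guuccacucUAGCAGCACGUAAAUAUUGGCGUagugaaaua

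A read of miR-16-5p that stays within this run matches both loci. Reads that mapped to several places were kept as a total of their own (6320188 in replicate 1 and 5615203 in replicate 2) and are not in the gene counts, and how many of them belong to miR-16 was not tested. The counts of Mir16-1 and Mir16-2 therefore leave out reads that cannot be told apart, and the level of mature miR-16 is uncertain. Of all windows of 20 bases, 4 of 74 in Mir16-1 and 4 of 76 in Mir16-2 occurred in another microRNA gene, and none did in Mir15a, Mir15b, Mir195a or Mir497, apart from Mir497b at the same place. The longest run that one of these 4 shared with another locus was 16 bases, between Mir195a and Mir195b. Matches outside annotated microRNA genes were not searched.

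**Figure D1:**
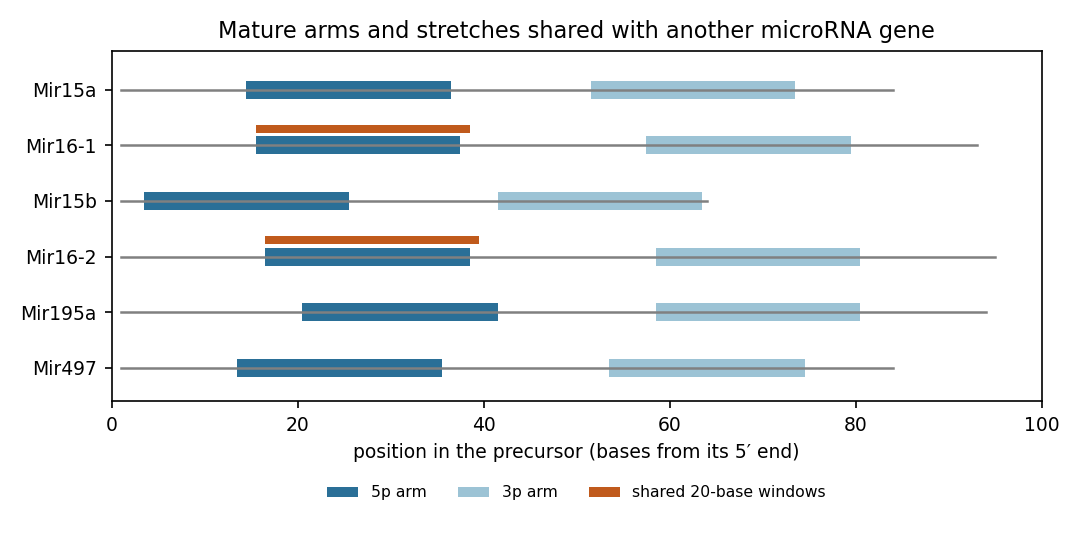
The 6 precursors are drawn to scale from their 5′ end (x axis, bases), with the 5p arm dark, the 3p arm light and the stretch covered by 20-base windows that also occur in another microRNA gene in orange above it. Leaving aside Mir497b, which lies over Mir497, only Mir16-1 and Mir16-2 carry such a stretch, and it covers the 5p arm that they have in common.

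Levels are sense-strand counts scaled to a total of 1000000 reads assigned to microRNA genes (CPM). These totals were 4929428 reads in replicate 1 and 4441328 in replicate 2, where a single read stands for 0.203 and 0.225 CPM, and intervals cover counting error only. In the marker lists, 10 of 12 neuronal microRNA genes reached the 10 reads per library that detection required, while Mir124a-2 and Mir124a-3 did not. Reads that mapped to several places are left out of these counts too. A low count at a gene is therefore no measure of its mature microRNA where several loci make it, and how many such reads belong to the listed genes was not tested. The summed level of the neuronal list was 54945 CPM in replicate 1, against 65872 CPM in replicate 2. Without Mir132, at 19682 CPM in replicate 1 against 44698 CPM in replicate 2, the sum was 35264 against 21175 CPM. With Mir132 included, 8 neuronal genes were past the threshold of the exact binomial test between libraries. Of these 8, 7 were higher in replicate 1 and 1, Mir132 itself, was lower. Among all genes tested, 59.2% passed, 34.5% as higher and 24.7% as lower in replicate 1. The muscle list stood at 35.5 and 46.8 CPM with 3 of 5 genes without a read, and the single liver gene, Mir122, at 69.0 and 50.9 CPM. The vessel list summed to 20418 and 21812 CPM, the oligodendrocyte list to 3393 and 5622 CPM, the leukocyte and microglia list to 1934 and 2080 CPM, and the choroid plexus list to 1893 and 1436 CPM. In the leukocyte and microglia list and in the choroid plexus list, 2 genes passed as higher and 1 as lower in replicate 1. In the vessel list 1 passed as higher and 2 as lower, and in the oligodendrocyte list 0 as higher and 2 as lower. In whole tissue, fewer cells of a type and less of a microRNA per cell cannot be told apart.

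All 6 family members were detected, that is, had at least 10 reads in each library, against 417 of 2202 genes in all. Together they had 20862 reads in replicate 1 and 14487 in replicate 2. This is 0.423% of the assigned reads in replicate 1 (exact 95% interval 0.418 to 0.429%) and 0.326% in replicate 2 (0.321 to 0.332%), a mean of 0.375 ± 0.0686% (SD, n = 2). These shares, and the order of the members given next, hold for reads assigned to a single locus; reads of miR-16-5p that match both of its loci are in neither. On that basis every member lay above the median level of the detected genes, 94.7 CPM, at percentiles from 56.8 to 82.7, and the median over the members was 542 CPM. The levels of the members spanned 10.7-fold from the highest to the lowest mean.

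Mir195a had the highest level of the members, with 1995 CPM in replicate 1 and 1376 CPM in replicate 2, a mean of 1686 ± 438 CPM (SD, n = 2). It ranked 73rd among the 417 detected genes by its mean and made 47.1% of the family's reads in replicate 1 and 42.2% in replicate 2. In both libraries it stood well above every other member. Its cluster partner Mir497 had 608 CPM in replicate 1 and 417 CPM in replicate 2, with a mean of 512 ± 136 CPM (SD, n = 2). Mir195a was read 3.28 times as often as Mir497 in replicate 1 (exact 95% interval 3.15 to 3.42) and 3.30 times in replicate 2 (3.14 to 3.48), so that the ratio of the partners was nearly the same in both libraries. The pair supplied 61.5% of the family's reads in replicate 1 and 55.0% in replicate 2.

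The Dleu2 pair came next, with 31.7% of the family's reads in replicate 1 and 34.1% in replicate 2. Mir15a had 602 CPM in replicate 1 and 711 CPM in replicate 2, a mean of 656 ± 77.3 CPM (SD, n = 2). Mir16-1 had 741 CPM in replicate 1 and 400.1 CPM in replicate 2, a mean of 571 ± 241 CPM (SD, n = 2). The order of the partners turned between the libraries, with Mir16-1 above Mir15a in replicate 1 and below it in replicate 2.

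The Smc4 pair was the lowest, with 6.75% of the family's reads in replicate 1 and 11.0% in replicate 2. Mir15b had 107.1 CPM in replicate 1 and 208 CPM in replicate 2, a mean of 158 ± 71.7 CPM (SD, n = 2). Mir16-2 had 179 CPM in replicate 1 and 149.5 CPM in replicate 2, a mean of 164 ± 20.7 CPM (SD, n = 2). Here too the order turned, with Mir16-2 above Mir15b in replicate 1 and below it in replicate 2. In the reads assigned to a single locus, the paralogues from Dleu2 were the higher ones in both libraries. Mir15a was read 5.62 times as often as Mir15b in replicate 1 (exact 95% interval 5.12 to 6.17) and 3.41 times in replicate 2 (3.17 to 3.67). Mir16-1 was read 4.15 times as often as Mir16-2 in replicate 1 (3.85 to 4.47) and 2.68 times in replicate 2 (2.45 to 2.93). Reads of miR-16-5p that match both loci are in neither count, so the Mir16-1 to Mir16-2 ratio does not show which locus makes more miR-16-5p.

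In order of mean level the members were Mir195a, Mir15a, Mir16-1, Mir497, Mir16-2 and Mir15b. The ranges of Mir15a, Mir16-1 and Mir497 over the libraries overlapped, as did those of Mir16-2 and Mir15b, so the order within these 2 sets is not set beyond the spread between libraries. Mir195a, the 3 middle genes and the Smc4 pair formed levels that did not overlap. The mature arms are all 21 or 22 bases long, so that these levels were compared without a correction for length.

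**Figure D2:**
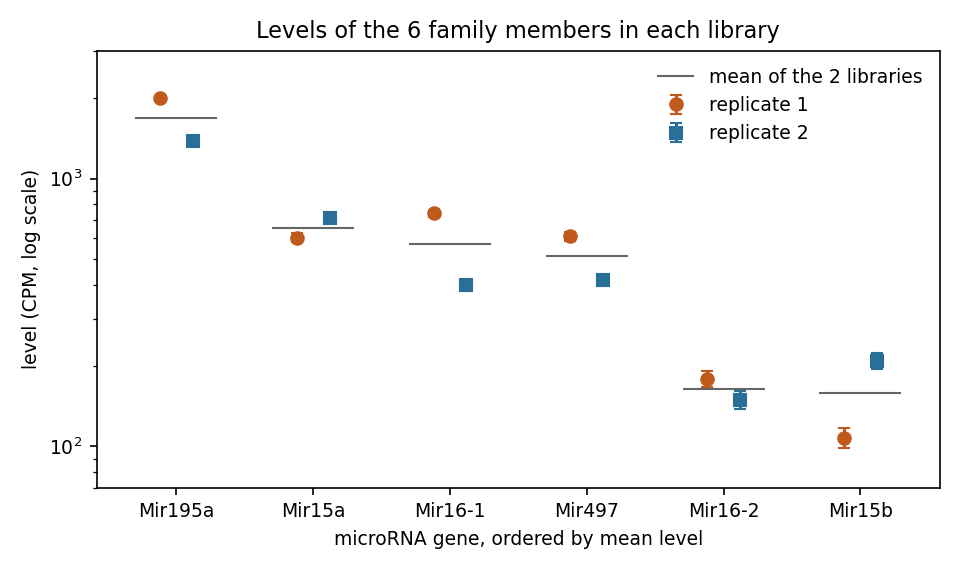
The level of each member (y axis, CPM on a log scale) is given for replicate 1 (circles) and replicate 2 (squares), with exact Poisson 95% intervals as bars, some of them smaller than the symbols, and a line at the mean. Mir195a lies at 1995 and 1376 CPM, Mir15a, Mir16-1 and Mir497 between 400.1 and 741 CPM, and Mir16-2 and Mir15b between 107.1 and 208 CPM.

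The same seed is also annotated in 5 other genes, and a single one of them was read. Mir322, the mouse counterpart of human miR-424 in a cluster on the X chromosome (53054255 to 53054349, minus strand), had 700 CPM in replicate 1 and 504 CPM in replicate 2, with a mean of 602 ± 138 CPM (SD, n = 2), which is within the range of the middle members. Its 5p arm is shown for comparison with the arms above, with the seed in capitals.
miR-322-5p: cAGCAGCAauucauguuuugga

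Mir195b, Mir6342, Mir6353 and Mir6419 had no read in either library, which allows a level of 3 reads, or 0.609 and 0.675 CPM in replicates 1 and 2. The mature sequence of Mir195b is shown because its first 16 bases are those of miR-195a-5p, the longest run these loci share.
miR-195b: uAGCAGCAcagaaauaguagaa
Over the 11 genes with the seed, the family of 6 supplied 85.8% of the reads assigned to a single locus in replicate 1 and 86.6% in replicate 2. These reads include 3p arms, and they leave out reads of miR-16-5p that match both of its loci. Mir503 and Mir351 stand beside Mir322 on the X chromosome and have other bases 2 to 8; Mir503, whose 5p arm shares bases 2 to 7 with the family, had 11.4 and 12.2 CPM, and Mir351 had 139.8 and 98.6 CPM.

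The 2 libraries were compared at each of the 417 detected genes by a two-sided exact binomial test that takes both totals into account. P-values were adjusted by Benjamini-Hochberg over all of these genes, with a threshold of 0.05. This compares the libraries and not conditions, and it holds counting error alone. Of all genes tested, 59.2% passed, 34.5% as higher and 24.7% as lower in replicate 1. All 6 members passed, 4 as higher in replicate 1 (Mir16-1, Mir195a, Mir497 and Mir16-2) and 2 as lower (Mir15a and Mir15b). Most genes of this depth passed too, so the count says little of the family.

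The widest gap was that of Mir15b, whose counts were 528 reads in replicate 1 against 926 in replicate 2. Its log2 ratio of replicate 1 to replicate 2 was -0.96 (exact 95% interval -1.12 to -0.81, adjusted p = 4.72e-35, exact binomial test). Mir16-1 had 3654 reads in replicate 1 against 1777 in replicate 2, and its log2 ratio was 0.89 (0.81 to 0.97, adjusted p = 9.71e-106, exact binomial test). These 2 genes, 1 from each host gene, moved in opposite directions, and their absolute log2 ratios stood at the 86.6th and 84.7th percentile of the detected genes.

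Mir195a had 9834 reads in replicate 1 and 6112 in replicate 2 (log2 ratio 0.54, exact 95% interval 0.49 to 0.58), and Mir497 had 2999 and 1850 (0.55, 0.46 to 0.63). Both were 1.45- to 1.46-fold higher in replicate 1, and each passed the exact binomial test, with adjusted p = 9.03e-117 for Mir195a and 9.53e-38 for Mir497. Mir15a had 2966 reads in replicate 1 and 3158 in replicate 2 (log2 ratio -0.24, -0.31 to -0.17, adjusted p = 1.98e-10, exact binomial test), and Mir16-2 had 881 and 664 (0.26, 0.11 to 0.41, adjusted p = 0.00105, exact binomial test).

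With library totals as the scale no member reached a 2-fold gap, which 49 of the 417 genes (11.8%) did. The median absolute log2 ratio was 0.54 over the members and 0.37 over all detected genes, and the median signed ratio was 0.40 over the members and 0.05 over all. When the spread between the libraries was taken into account, with an exact negative binomial test in edgeR at the biological coefficient of variation of 0.340 fitted to all detected genes, no member passed. In that test 1.44% of the genes passed after adjustment. At an unadjusted p under 0.05 there were 23 genes, 5.52% of those tested, and no member among them, the lowest unadjusted p being 0.180 for Mir15b in that exact test. The gaps of the members thus passed against counting error and did not pass against the general spread between these libraries, from which that variation was itself estimated.

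**Figure D3:**
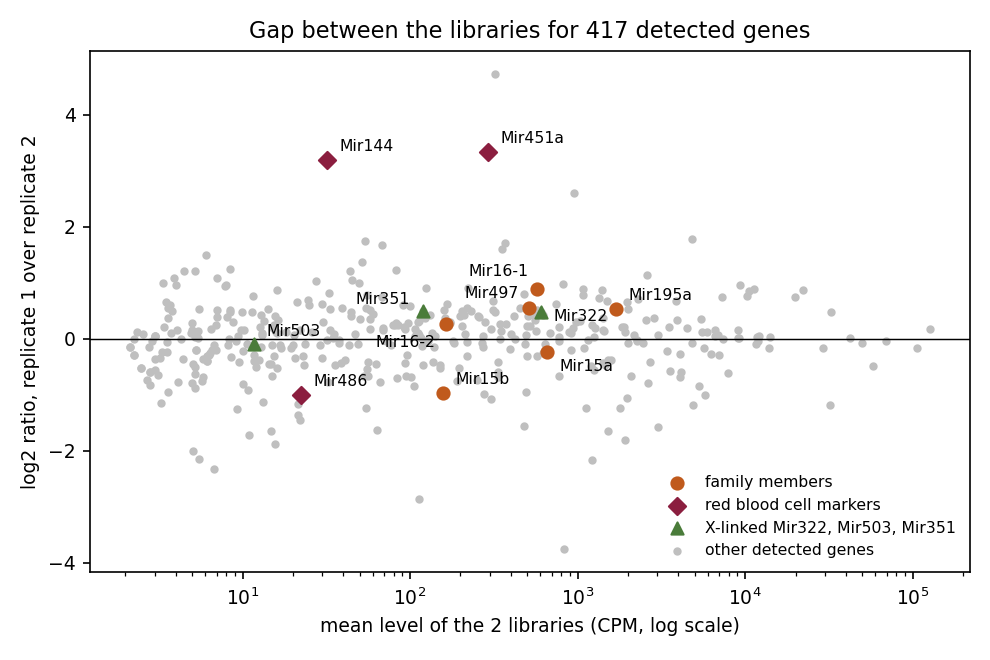
Each of the 417 detected genes is a point, with its mean level (x axis, CPM on a log scale) and its log2 ratio of replicate 1 to replicate 2 (y axis). The 6 members (circles) lie between -0.96 and 0.89, inside the cloud of other genes. Of the red blood cell genes (diamonds), Mir451a and Mir144 lie above 3, and Mir486 lies at -0.996.

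In the reads assigned to each locus, the partners within the Dleu2 and Smc4 pairs moved apart, and by nearly the same factor. The counts of Mir16-1 and Mir16-2 leave out reads that match both loci. The ratios below therefore set the miR-15 genes against only a part of the miR-16 reads. The ratio of Mir15a to Mir16-1 reads was 0.812 in replicate 1 (exact 95% interval 0.773 to 0.852) and 1.78 in replicate 2 (1.68 to 1.88), a log2 change of -1.13 (-1.24 to -1.02) that does not depend on how the libraries are scaled. The ratio of Mir15b to Mir16-2 reads was 0.599 in replicate 1 (0.537 to 0.668) and 1.39 in replicate 2 (1.26 to 1.54), a log2 change of -1.22 (-1.43 to -1.003). In both pairs the miR-15 gene was lower and the miR-16 gene higher in replicate 1, and the intervals of the 2 changes overlap.

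The Mir195a and Mir497 pair showed no such shift, with a log2 change of -0.01 (-0.11 to 0.09). As a background, 107 pairs of neighbouring detected genes on the same strand within 10000 bases differed in their log2 ratios by a median of 0.41 (quartiles 0.19 and 0.78). On that scale the Dleu2 pair stood at the 86.0th percentile, the Smc4 pair at the 88.8th and the Mir195a and Mir497 pair at the 1.87th. Over the 75 neighbouring pairs with at least 100 reads for each gene in each library, these were the 84.0th, 88.0th and 2.67th percentile. Between paralogues, the log2 change was 0.72 for Mir15a to Mir15b (0.55 to 0.89) and 0.63 for Mir16-1 to Mir16-2 (0.46 to 0.80). In the reads assigned to each locus, the Dleu2 copy was thus further above the Smc4 copy in replicate 1 in both cases, and for Mir16-1 and Mir16-2 these reads leave out those that match both loci. These 2 changes rearrange the same counts as the changes within the Dleu2 and Smc4 pairs, so their likeness to each other is no separate result.

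**Figure D4:**
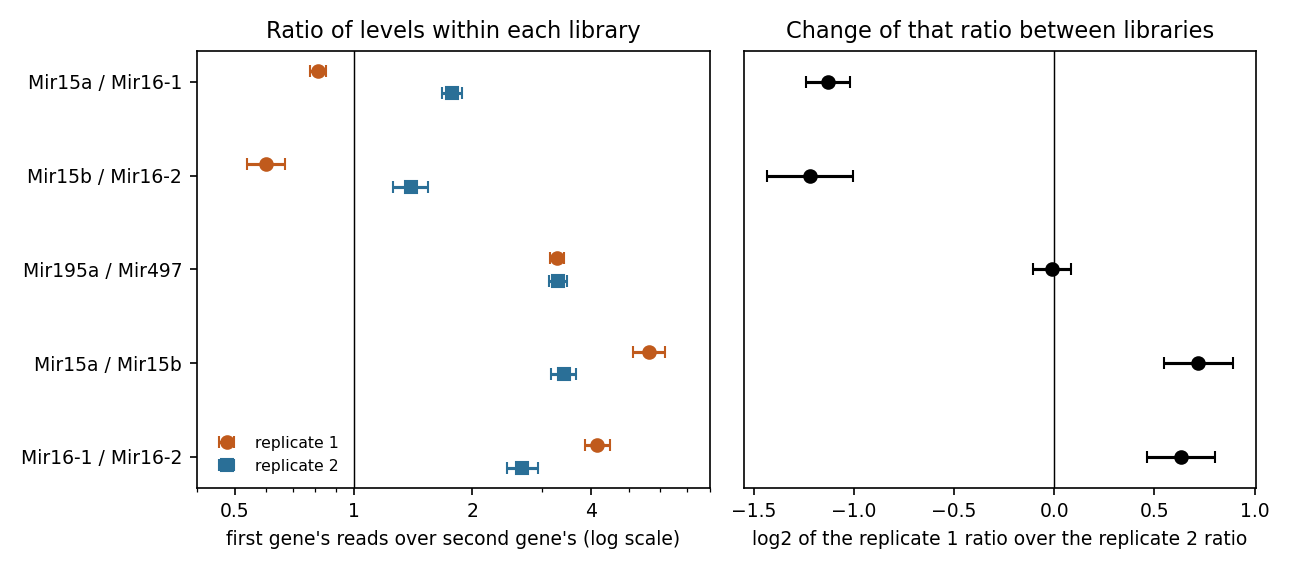
The left panel gives the reads of the first gene over those of the second within each library (log scale), for replicate 1 (circles) and replicate 2 (squares), and the right panel gives the log2 of the replicate 1 ratio over the replicate 2 ratio, both with exact 95% intervals. The pairs of Mir15a with Mir16-1 and Mir15b with Mir16-2 lie at -1.13 and -1.22, and that of Mir195a with Mir497 at -0.01. Reads that match both Mir16-1 and Mir16-2 are in neither count.

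Red blood cells are rich in miR-16 as well as in the markers listed for them, and these markers differed between the libraries. All 3 genes of the list were detected, and their summed level was 602 CPM in replicate 1, against 88.5 CPM in replicate 2. Mir451a stood at 529 CPM in replicate 1 and 52.2 CPM in replicate 2, and Mir144 at 57.8 and 6.30 CPM, both higher in replicate 1, whereas Mir486 stood at 15.0 and 29.9 CPM. Of the family, Mir16-1, Mir16-2, Mir195a and Mir497 were higher in replicate 1, as were 34.5% of all genes tested, and Mir15a and Mir15b were lower. The part of blood in the levels of the family was not tested.

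Counting strand mattered for one member. Because Mir497b lies over Mir497 on the other strand, the column without regard to strand gives Mir497 a count of 0 in both libraries, while the sense column gives 2999 reads in replicate 1 and 1850 in replicate 2. Mir497b had no sense read in either library. The other 5 members had identical counts in both columns, and no member had a read on its opposite strand.

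The detected gene outside the family with the most similar levels, by Euclidean distance of log2(CPM + 1) over the 2 libraries, was named for each member. It was Mir3099 for Mir15a (distance 0.12), Mir532 for Mir16-1 (0.27), Mir496a for Mir15b (0.31), Mir27a for Mir16-2 (0.09), Mir376a for Mir195a (0.27) and Mir326 for Mir497 (0.10). None of the 6 lies in a family locus, and with 2 libraries the likeness rests on level and 1 ratio alone.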

How the data were processed

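Small RNA of 2 cortex libraries was measured. The deposited tables hold raw read counts per microRNA gene, counted against mm10 with GENCODE M21, per the notes deposited with the files; the aligner and counter were not given in the sources used here. That the columns are counts without regard to strand, sense and antisense was inferred from the layout. Rows of unassigned reads stayed out of library sizes. Of 16403925 reads in replicate 1, 30.1% were assigned to genes on the sense strand, and of 16991914 in replicate 2, 26.1%. All 2202 identifiers matched GENCODE M21.

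CPM, exact binomial tests, Clopper-Pearson, Poisson and conditional odds ratio intervals (95%) were computed in Python 3.11.15 with SciPy 1.17.1; the common dispersion (intercept-only fit), negative binomial test and TMM factors in edgeR 4.0.16 and size factors in DESeq2 1.42.0 (R 4.3.3). Sequences come from RefSeq (GRCm38.p6) and GENCODE M21 transcripts. The binomial test was tested on simulated counts with counting error alone, which cannot show how it behaves under the spread between these libraries. The named genes are the members, genes sharing their seed, the Mir322 cluster, the gene on the other strand, the nearest gene to each member and the red blood cell markers; host genes are named as places, and Mir132, Mir122, Mir124a-2 and Mir124a-3 were named after their values were seen. Members and lists were chosen with earlier results of these data known. Alternatives were strand, scaling, totals, count minimum, error model, family definition and leaving out a library.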

Additional observations from a re-analysis of the deposited data

Results flagged for a closer look

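The column of opposite-strand counts, which no comparison used, holds 2999 reads at Mir497b in replicate 1 and 1850 in replicate 2, above the level of 3 reads. These are the same numbers as the sense counts of Mir497 at the same place on the other strand, and Mir497b itself has no sense read.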

How the results depend on the processing

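The family's share of 0.375% became 0.150% when all mapped reads were the total, in place of reads assigned to genes, and 0.301% without Mir16-1 and Mir16-2, an alternative chosen after seeing the data; both follow from their construction. It was 0.348% without regard to strand, where Mir497 drops out, 0.435% over every gene with the seed, 0.375% with the red blood cell genes left out of the totals (also chosen after seeing the data), and between 0.326 and 0.423% when a library was left out. The red blood cell genes summed to only 602 CPM in replicate 1 and 88.5 CPM in replicate 2, so leaving them out could hardly move the share. That alternative does not test the part of blood in the family's own reads. The number of members that differed between the libraries stayed at 6 under TMM factors, DESeq2 size factors, totals without the 10 most abundant genes, all mapped reads and both other count minimums. It was 5 without regard to strand, where Mir497 has no count, and 0 in the exact negative binomial test of edgeR, which adds the spread between libraries. All 6 members were detected under each count minimum. Every log2 ratio kept its direction in the 41 alternatives computed, and Mir15b passed 2-fold under TMM factors (-1.01), DESeq2 size factors (-1.01) and totals without the 10 most abundant genes (-1.04). No paired analysis was possible because there is a single group. The lowest count of a member was 528 reads, and with 2 libraries an SD rests on a single difference.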
